A study of Mus musculus with 2 samples.

Results

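The cells described here were the macrophages and monocytes of the fetal mouse lung: 191 of 8598 singlet barcodes, or 2.22%. They were chosen by their transcripts, as unique molecular identifiers (UMIs, each standing for 1 captured transcript). A member held at least 3 UMIs of Mpeg1, Ear2, Marco and Clec4a3 in sum and at least 3 of Tyrobp. It also held at most 3 UMIs of the mast cell enzyme Hdc and at most 2 of the neutrophil genes Stfa1, Stfa2 and Stfa2l1. The same gene rule was met by 211 barcodes that passed the limits on genes and mitochondrial UMIs, and 20 of these were left out because their hashtags did not name 1 litter. Since these genes chose the members, their levels are a description and are not tested.

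Macrophages and monocytes are phagocytes of the innate immune system. In the fetal lung, monocytes that enter from the circulation mature into alveolar macrophages around birth, a step that depends on GM-CSF, TGF-beta and the transcription factor PPAR-gamma, and the mature cells clear surfactant lipids from the airspaces. Glucocorticoids act on many myeloid cells through the glucocorticoid receptor, encoded by Nr3c1.

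The study was about maternal asthma and the lungs of the offspring, with group 2 innate lymphoid cells (ILC2s) as its main subject, and this experiment gave pregnant mothers a glucocorticoid. Wild-type C57BL/6J mothers, 9 weeks old, drank dexamethasone (DEX, a synthetic glucocorticoid) at 1.3 µg/ml in water from day 12 of gestation, or PBS as the control, and fetal lungs were taken on day 18. Live CD45+ cells that lacked lineage markers and carried ST2 (gene Il1rl1), which binds IL-33, were sorted, tagged by litter with 4 hashtag antibodies and sequenced as 5′ single-cell RNA libraries in 1 pool. DEX-1 and DEX-2 pooled the lungs of 8 and 9 fetuses, and PBS-1 and PBS-2 those of 5 and 8. The litter was the replicate (n = 2 per group), and cells of 1 litter are not replicates. The sort was made for ILC2s, and its lineage antibodies included CD11b and CD11c, which many macrophages carry, so the members are the cells that passed this gate and not a sample of all lung macrophages.

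The members held 209191, 467564, 401715 and 870183 UMIs in DEX-1, DEX-2, PBS-1 and PBS-2. Their median depth was 7971, 10155, 8373.5 and 8164 UMIs per barcode in the same order. Mitochondrial UMIs made up a median of 0.85%, 0.846%, 0.691% and 0.633%. Levels below are CPM, counts per 1e6 UMIs of a litter's members, so they count transcripts and do not depend on gene length. Values by litter were scaled by the TMM factors of the fit they come from, while summed lists and values by class or subgroup were not scaled. A count of 3 UMIs corresponds to 14.3, 6.42, 7.47 and 3.45 unscaled CPM in DEX-1, DEX-2, PBS-1 and PBS-2, and smaller differences could not be read at this depth.

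The promoters of 3 genes that the results turn on are shown from RefSeq (GRCm38.p6), each as the 250 bases before the transcription start, in the direction of the gene. Spp1 encodes the secreted glycoprotein osteopontin and was the single gene called between DEX and PBS litters. Isg15 encodes an interferon-induced ubiquitin-like protein and was among the 5 genes with the smallest p of those lower in DEX litters. Mpeg1 encodes perforin-2, a pore-forming protein of phagocytes, and helped to choose the members. Capitals mark 2 searched motifs on either strand: GAGGAAGT, a core bound by the myeloid factor PU.1, and the interferon-stimulated response element core, GAAA and GAAA around any 2 bases.
Spp1, chr5:104434861-104435110, plus strand: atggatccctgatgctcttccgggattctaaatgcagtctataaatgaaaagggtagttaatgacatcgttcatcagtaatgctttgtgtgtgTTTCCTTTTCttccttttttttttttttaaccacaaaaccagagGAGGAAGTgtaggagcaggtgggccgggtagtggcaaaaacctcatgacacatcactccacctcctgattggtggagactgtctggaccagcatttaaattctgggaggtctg
Isg15, chr4:156200819-156201068, minus strand: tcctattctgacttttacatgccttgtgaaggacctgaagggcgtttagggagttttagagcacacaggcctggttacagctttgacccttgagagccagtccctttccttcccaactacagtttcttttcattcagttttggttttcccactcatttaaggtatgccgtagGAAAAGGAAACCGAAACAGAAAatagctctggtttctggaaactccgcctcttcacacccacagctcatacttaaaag
Mpeg1, chr19:12460520-12460769, plus strand: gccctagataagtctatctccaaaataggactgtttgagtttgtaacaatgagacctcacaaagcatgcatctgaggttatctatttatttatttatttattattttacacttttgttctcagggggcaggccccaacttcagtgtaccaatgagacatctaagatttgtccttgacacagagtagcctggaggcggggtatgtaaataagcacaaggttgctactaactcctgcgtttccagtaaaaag
The Spp1 window held 1 GAGGAAGT, which began 113 bases before the start, and 1 interferon element on the minus strand that began 157 bases before it. The Isg15 window held 3 overlapping interferon element matches, beginning 78, 72 and 66 bases before the start. The Mpeg1 window held neither. GAGGAAGT was found in 2.44% of all 32851 RefSeq windows of this length and the interferon element in 2.98%. Of the 12 windows of the interferon response list, 6 held the interferon element (Bst2, Ifit1, Ifit3, Isg15, Rsad2 and Stat2). A match describes letters in the window and does not show that a factor binds there.

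Barcodes on the 2 sides of the edge of the gene rule were alike in Lyz2. The sum of Mpeg1, Ear2, Marco and Clec4a3 had a median of 8 UMIs in the members and reached 65. It was exactly 3 in 14 members, and 15 singlets that met the rest of the rule held 2. All 14 inside and all 15 outside held Lyz2, with a median of 21.5 and 33 Lyz2 UMIs. A marker sum of at least 5 would have kept 164 members. The members' own hashtag had at least 116 UMIs (median 1524), against a median of 11 for the next tag.

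The 5 marker genes were spread unevenly over the members. Mpeg1 had a UMI in 168 of 191 members (88.0%), Mcemp1, a membrane protein of mast cells and myeloid cells, in 167 (87.4%), and the ribonuclease Ear2 in 154 (80.6%). Wfdc17, a secreted protease inhibitor-like protein of activated macrophages, was found in 53 members (27.7%), and the scavenger receptor Marco in 33 (17.3%). In the 201 B-marked singlets, which should lack these genes, thinning every cell to 2000 UMIs left Mpeg1 in 1.61%, and Ear2 and Mcemp1 in 0%. The members held Mpeg1, Ear2 and Mcemp1 in 46.0%, 53.4% and 49.7% after the same thinning. Mpeg1 and Ear2 helped to choose the members, so their contrast follows in part from the rule and is no test. Mcemp1 was not a gene of the rule. Without thinning, Mcemp1 was also held by 73.5% of the 34 neutrophil-marked singlets, at 295 CPM against 329 in the members. Ear2 belongs to a family of near-identical ribonucleases, so its reads may be shared with other Ear genes.

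General macrophage genes matched the label in part. The lysozyme Lyz2 was present in 99.5% of members, the lysosomal protein Cd68 in 73.8%, the CSF1 receptor Csf1r in 53.4%, the mannose receptor Mrc1 in 50.3% and the Fc receptor Fcgr1 in 42.9%. The complement genes C1qa, C1qb and C1qc were found in 1.57%, 3.14% and 4.19%, and the scavenger receptor Cd163 in 0 of 191, which allows a share of up to 1.57% of barcodes with a UMI. Many phagocyte genes were thus detected in most members, and C1q and Cd163 UMIs in few or none. Neutrophil-marked singlets held Lyz2 in 94.1%, Cd68 in 38.2%, Csf1r in 35.3%, Mrc1 in 23.5% and Fcgr1 in 20.6%. Lyz2 had 8424 CPM there against 6371 in members, and Csf1r 107 against 103, so neither gene set the members apart from that class. Cd68, Mrc1 and Fcgr1 had lower CPM there than in the members.

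Genes of alveolar macrophages were also split. The fatty acid-binding protein Fabp5 was present in 75.4% of members, Plet1 in 68.1%, the cytokine Il18 in 82.7% and the regulator Pparg in 52.4%. Siglecf, a surface lectin that marks mature alveolar macrophages, was found in 3.66%, the chitinase-like Chil3 in 2.09%, Car4 in 21.5% and Fabp4 in 12.6%. Monocyte genes showed the same division, with the fibronectin gene Fn1 in 86.4%, Cd14 in 66.5%, the chemokine receptor Ccr2 in 53.9% and Ly6c2 in 15.7%.

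Defining markers of other cell types were at 0 for several types, while other genes of the same lists were present. The dendritic cell genes Flt3, Xcr1 and Ccr7, the eosinophil genes Prg2, Epx and Ccr3, the basophil gene Mcpt8 and the B cell gene Cd79a had no UMI in any member. On the same lists, Irf8 had a UMI in 48.7% of members, Bst2 in 70.7%, the B cell receptor chain gene Cd79b in 19.4% and the mast cell protease gene Cma1 in 13.6%. The B-marked singlets held Irf8 in 63.2%, Bst2 in 47.8% and Cma1 in 12.9%. At least 3 UMIs of the mast cell or basophil list were held by 9 members and of the ILC2 list by 15, 20 barcodes in all. The gate's own gene Il1rl1 had a UMI in 7 of 191 members (3.66%), against 70.5% of ILC2-marked and 86.2% of mast or basophil-marked singlets at median depths of 8369, 7645 and 7813.5 UMIs. Itgam, which encodes CD11b, was found in 22 members (11.5%), Itgax, which encodes CD11c, in 20 (10.5%), and Ptprc, which encodes CD45, in 142 (74.3%).

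Beyond the genes of the rule, the members carried a distinct set at the highest ratios to the other 8407 singlets, which is a description because the same cells were chosen by such genes. The genes in this paragraph were picked after their values were seen. The tetraspan gene Ms4a8a had 61.1 CPM in members against 0.177 in other singlets, and the neuropeptide galanin, Gal, 262 against 1.08. The formyl peptide receptor Fpr1 had 93.9 against 0.406, the coagulation factor F7 127 against 0.613, and the transcription factor Tfec 95.5 against 0.561. Cybb, the NADPH oxidase subunit of phagocytes, stood at 385 against 3.41 and was present in 91.1% of members. Gal was found in 56.0% of members and in 0.498% of B-marked cells.

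S100a8 was detected without its usual partner. S100a8 and S100a9 encode the 2 chains of calprotectin, which neutrophils and inflammatory monocytes make together. S100a8 had a UMI in 140 of 191 members (73.3%) at 307.9 CPM, while S100a9 was found in 0 of 191, which allows a share of up to 1.57% of barcodes with a UMI and sets no limit on cells that express it below detection. The 34 neutrophil-marked singlets held S100a8 in 97.1% and S100a9 in 85.3%, at 14118 and 22814 CPM. S100a8 was absent from the 2074 ILC2-marked and the 201 B-marked singlets. By litter, 13 of 20, 29 of 44, 35 of 42 and 63 of 85 members held S100a8 in DEX-1, DEX-2, PBS-1 and PBS-2, and the CPM levels of the groups overlapped.

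The members fell into 5 subgroups when clustered on their own counts. The largest held 102 barcodes and was set apart by few genes. It carried Ear2 in 96.1%, Fn1 in 93.1% and S100a8 in 82.4% of barcodes, and its 10 leading genes were at most 4.18 times as high as in the other members. The dividing subgroup of 35 barcodes had Hist1h1b at 635 CPM against 33.1 in the other members, the kinesin Kif11 at 127 against 7.80, and the proliferation genes Mki67 and Top2a in 94.3% and 91.4% of barcodes. It resembled the largest in Ear2 (94.3%), Fn1 (97.1%) and S100a8 (82.9%).

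The next 26 barcodes formed a subgroup that is called here alveolar macrophage-like, since 4 of the 18 markers of that list were among its 10 leading genes. Gpnmb, a membrane glycoprotein of lipid-laden macrophages, stood at 676 CPM and was found in 0 of the other members. Atp6v0d2, a subunit of the vacuolar proton pump, had 515 CPM against 1.90, the fatty acid carrier Fabp4 1599 against 10.7, the protease Ctsk 109 against 1.26, and the carbonic anhydrase Car4 875 against 33.5. Wfdc17 was present in 92.3% of these barcodes at 3250 CPM, Mrc1 in 80.8% and Pparg in 88.5%, while Ear2 was present in 30.8%. Siglecf, that marker of the mature cell, was found in 3.85%. Of the 18 markers of the list, 11 were found in at least 25% of the barcodes of this subgroup. Markers lower in it than in the other members included Chil3, at 0 CPM against 13.3, and Ear1, at 2.7 against 17.1. Cidec, at 2.7 CPM against 15.8, and Il18 were lower as well. The name therefore rests on part of the list.

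Another 15 barcodes formed a subgroup led by genes that included C1qc, Ms4a4a, C1qb, Ms4a4c and Plac8. It held 114 of the C1qb UMIs, against 21 in the epithelial or endothelial-led subgroup described next and 0 elsewhere. C1qb stood at 887 CPM and in 33.3% of its barcodes, and it also had Ly6c2 in 86.7%, Csf1r in 100% and Apoe at 5889 CPM. Since 3 macrophage and 2 monocyte markers were among its 10 leading genes, it is called here by 2 of those genes, the Ms4a4c Plac8 subgroup. The remaining 13 barcodes formed a subgroup led by Igfbp7, Ager, Wfdc2 and Cldn3, genes of lung epithelium and endothelium, with a median of 13499 UMIs per barcode against 6851 in the largest subgroup. It carried Ear2 in 84.6% and Lyz2 in 100% of barcodes beside Sftpc, the surfactant protein C gene, at 33520 CPM. Doublets of 2 cells from 1 litter cannot be found by hashtags and were not removed. Sftpc also had a UMI in 76.1% of B-marked singlets and 75.4% of all members, so its presence marks no class.

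**Figure D1:**
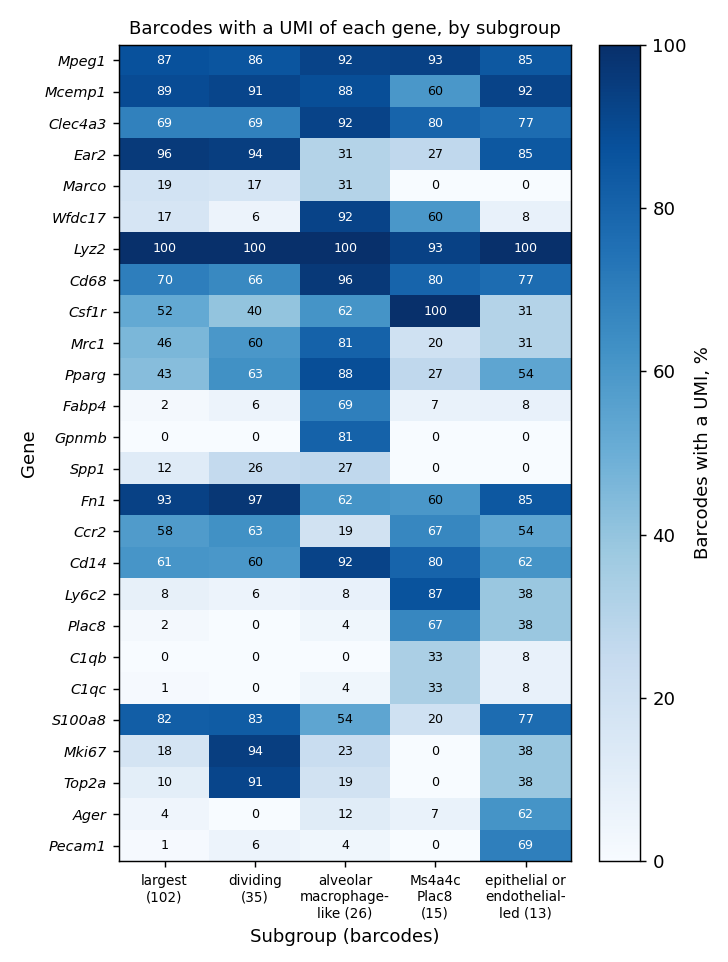
Percentage of barcodes with at least 1 UMI of each gene (rows) in each of the 5 subgroups of the 191 members (columns, with the number of barcodes). Gpnmb was present in 80.8% of the alveolar macrophage-like barcodes and in 0% of the others, Ear2 in 96.1% of the largest subgroup, and Ly6c2 in 86.7% of the Ms4a4c Plac8 subgroup.

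The subgroups were found in both groups of litters, and each litter held all 5 except DEX-1, which had no barcode of the Ms4a4c Plac8 subgroup. The largest held 10, 19, 26 and 47 barcodes of DEX-1, DEX-2, PBS-1 and PBS-2, and the dividing subgroup 4, 10, 7 and 14, or 20.0%, 22.7%, 16.7% and 16.5% of each litter's members. The alveolar macrophage-like subgroup held 4, 7, 3 and 12. The Ms4a4c Plac8 subgroup held 0, 5, 5 and 5, and the epithelial or endothelial-led subgroup 2, 3, 1 and 7. No test was run on these small numbers, since the clusters were drawn from genes that may differ between groups.

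The share of members among singlets was lower in DEX litters. It was 1.15% in DEX-1 (20 of 1732, 95% Wilson interval 0.749 to 1.78), 1.91% in DEX-2 (44 of 2305, 1.43 to 2.55), 2.19% in PBS-1 (42 of 1919, 1.62 to 2.95) and 3.22% in PBS-2 (85 of 2642, 2.61 to 3.96). Both DEX litters were below both PBS litters, and DEX-2 and PBS-1 had overlapping intervals, which cover counting error only. The mean was 1.53% ± 0.533 (SD, n = 2) with DEX and 2.70% ± 0.727 with PBS, a difference of -1.17 percentage points. The two-sided exact permutation p was 0.33, which is the smallest that 2 litters against 2 can give, so the difference could not pass the threshold. A share of sorted singlets moves with every other class and with the gate, and fewer macrophages and more of other cells cannot be told apart.

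**Figure D2:**
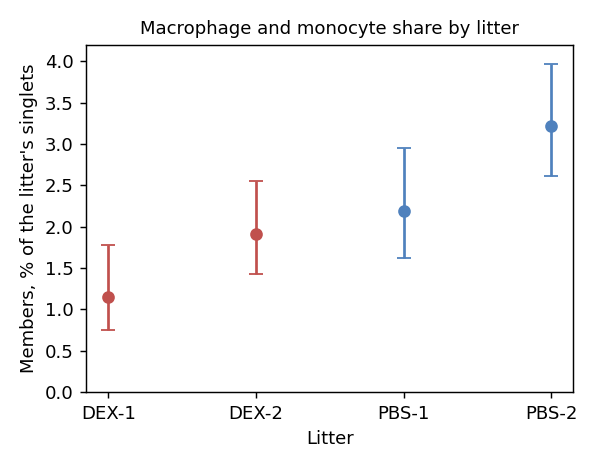
Members as a percentage of each litter's singlets (vertical axis) in the 2 DEX and 2 PBS litters (horizontal axis), with 95% Wilson intervals as bars. The points rise from 1.15% and 1.91% in the DEX litters to 2.19% and 3.22% in the PBS litters.

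To ask which genes of the members differed with maternal DEX, UMIs were summed per litter and 5510 genes were tested with edgeR. Only Spp1 was called at an adjusted p below 0.05, which is 0.0181% of the genes tested, and it fell. At an unadjusted p below 0.05 there were 241 genes, 154 higher and 87 lower with DEX. Both DEX litters were above both PBS litters for 17.7% of genes and below them for 16.9%, and these shares are the background for the counts of non-overlapping genes below. Beyond the mother and the number of pooled fetuses, the labels and methods name no difference between the 2 litters of a group. The p-values rest on 2 litters per group, with the spread of each gene moderated by that of all genes tested.

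Spp1 (chr5:104435118-104441050, GRCm38) had 5.22, 2.25, 179 and 194 CPM in DEX-1, DEX-2, PBS-1 and PBS-2. The groups did not overlap, and the litters within each group were close. Its log2 fold change was -5.77 ± 0.41 (SE; edgeR adjusted p = 0.0011). In UMIs, the DEX litters held 2 of 676755 and the PBS litters 231 of 1271898, a ratio of 61.5 with an exact 95% interval of 16.8 to 510 that covers counting error only. The call was not made when DEX-1 was paired with PBS-2 and DEX-2 with PBS-1 (log2 fold change -5.74, edgeR adjusted p = 0.0847) and remained with the litters blocked by their own number (0.012). Spp1 could not be tested in the largest subgroup alone, where it had 1 UMI with DEX and 12 with PBS.

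Few barcodes held most of the Spp1 transcripts. A UMI was found in 1 of 20 members of DEX-1, 1 of 44 of DEX-2, 6 of 42 of PBS-1 and 20 of 85 of PBS-2. This is 3.13% of DEX members (exact interval 0.381 to 10.8) and 20.5% of PBS members (13.8 to 28.5), counting cells and not litters. The highest barcodes held 84 and 32 UMIs in PBS-2 and 48 and 14 in PBS-1, and all 4 were alveolar macrophage-like. In that subgroup, 15 PBS barcodes held 187 Spp1 UMIs in 6 of them, and 11 DEX barcodes held 1. In the dividing subgroup, 9 of 21 PBS barcodes held 32 UMIs, and 0 of 14 DEX barcodes held any. After thinning to 2000 UMIs per cell, Spp1 was found in 0%, 0%, 7.14% and 13.3% of the members of DEX-1, DEX-2, PBS-1 and PBS-2. It was present in 0 of 201 B-marked and 0.0964% of ILC2-marked singlets, and in 4.34% of mast or basophil-marked ones.

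**Figure D3:**
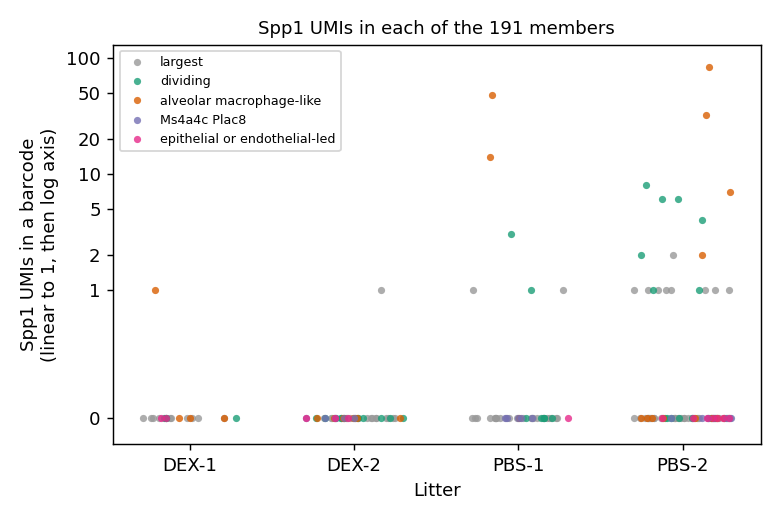
Spp1 UMIs in each member (vertical axis, linear to 1 and logarithmic above) by litter (horizontal axis), coloured by subgroup, with points spread sideways for visibility. The 2 DEX litters show 1 barcode each with 1 UMI, and the highest PBS barcodes, at 84, 48, 32 and 14 UMIs, are alveolar macrophage-like.

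The next genes lower with DEX did not pass the adjusted threshold. Lst1, which encodes a small membrane protein of leukocytes, stood at 125, 131, 257 and 251 CPM in DEX-1, DEX-2, PBS-1 and PBS-2, a log2 fold change of -0.98 ± 0.191. Ly86, which encodes MD-1, a partner of the toll-like receptor homologue RP105, had 36.5, 76.6, 129 and 139 CPM (-1.11 ± 0.294). Both genes were found in many barcodes, Lst1 in 15, 25, 33 and 61 members and Ly86 in 5, 15, 24 and 50. The groups did not overlap for either gene, as for 16.9% of all genes. Their edgeR adjusted p-values were 0.725 and 0.999.

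Isg15 and the antiviral membrane protein gene Ifitm3 were the other 2 genes of this direction. Isg15 had 20.9, 45.1, 86.7 and 129 CPM in DEX-1, DEX-2, PBS-1 and PBS-2, which is -1.58 ± 0.358 as a log2 fold change (edgeR adjusted p = 0.999). Ifitm3 had 235, 286, 394 and 544 CPM (-0.84 ± 0.207, edgeR adjusted p = 0.999). Of the PBS transcripts of Isg15, 87 UMIs lay in the Ms4a4c Plac8 subgroup, where all 10 PBS barcodes held it, and 3 of 5 DEX barcodes there held 4. Isg15 passed the threshold without the 20 members that held transcripts of mast cells, basophils or ILC2s. It also passed with no low-count filter, where 50 genes were called. It did not pass with DESeq2, RLE normalization, HTODemux litter calls or a marker sum of at least 5. Nor did it pass without the epithelial or endothelial-led subgroup. With 1 litter left out, its log2 fold change was -1.31 (DEX-1), -2.42 (DEX-2), -1.82 (PBS-1) and -1.25 (PBS-2). A UMI was found in 10 of 64 DEX and 26 of 127 PBS members. After thinning to 2000 UMIs, 5.29% of members, 4.30% of B-marked and 5.21% of ILC2-marked singlets held Isg15, so the share with a UMI was similar in these classes.

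No gene higher with DEX passed the threshold. Atp6v0d2 stood at 172, 156, 76.2 and 72.6 CPM in DEX-1, DEX-2, PBS-1 and PBS-2, which is 1.13 ± 0.215 as a log2 fold change (edgeR adjusted p = 0.725). Its transcripts came from few cells, 4, 6, 3 and 8 barcodes, nearly all alveolar macrophage-like. The DNA synthesis genes Tk1, thymidine kinase, and Mcm5, a helicase subunit, both had non-overlapping litters, as did 17.7% of all genes in this direction. Tk1 stood at 115, 113, 47.3 and 47.6 CPM and Mcm5 at 99.2, 81.1, 34.2 and 34.5. The linker histone gene Hist1h1e had 287, 329, 160 and 187 CPM. Its fold change was 0.83 in all members and of the opposite sign in the largest subgroup alone.

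Calca, which encodes calcitonin and the neuropeptide CGRP, had the smallest p among genes higher with DEX, and its values rested on a few barcodes. It had 209, 521, 5.25 and 34.5 CPM in DEX-1, DEX-2, PBS-1 and PBS-2 (log2 fold change 3.97 ± 0.548, edgeR adjusted p = 0.134). In DEX-1, 39 of 40 UMIs were in 1 barcode, and in DEX-2 164 of 231 were in 1. Calca was also abundant outside the members, at 1604, 643, 1307 and 407 CPM in the other singlets of the same litters. Of the DEX UMIs of Calca, 106 were in 3 barcodes of the epithelial or endothelial-led subgroup.

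**Figure D4:**
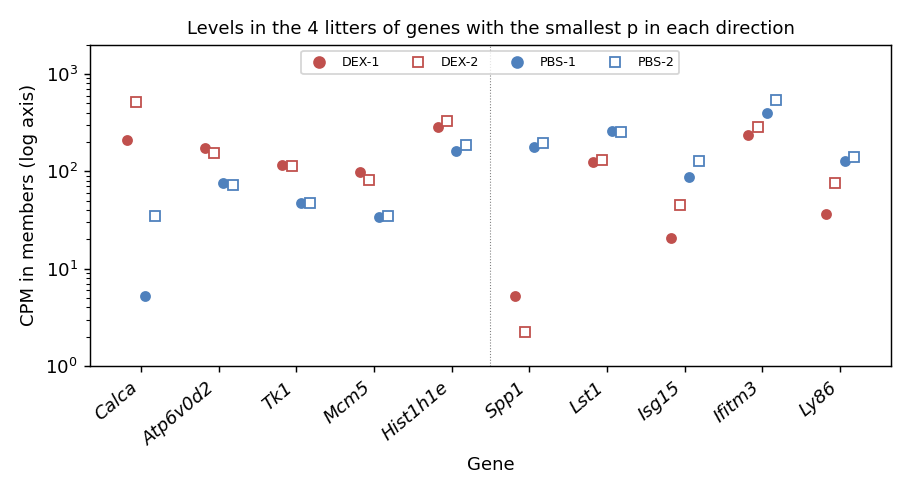
Levels in members in CPM (vertical axis, logarithmic) of the 5 genes with the smallest p in each direction (horizontal axis), with 1 point per litter, red for DEX and blue for PBS, filled circles for litter 1 and open squares for litter 2. Spp1, at 5.22 and 2.25 against 179 and 194, was the only gene called. None of the 10 genes had overlapping groups, which their choice by p from these same litters made likely. Of all genes tested, 17.7% did not overlap and were higher with DEX, and 16.9% did not overlap and were lower.

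Gene lists of cell types and functions were then read by counts and by the median log2 fold change, beside 0.0037 over all 5510 genes. Spp1 is on none of the lists, and 0 of their genes were called in either direction. On the monocyte list, 11 of 11 tested genes were below 0 with a median of -0.83. Of these, 7 had both DEX litters below both PBS litters, as had 16.9% of all genes. An unadjusted p below 0.05 was found for 4 of them, against 87 of all 5510 genes in this direction. Plac8 had 0, 108, 273 and 199.97 CPM in DEX-1, DEX-2, PBS-1 and PBS-2, Ly6c2 15.7, 56.4, 73.6 and 106, and the monocyte chemokine receptor gene Ccr2 67.8, 110, 189 and 137. Fn1 and Cd14, at 444 and 230 CPM in DEX-1 and 618 and 343 in DEX-2, overlapped with the PBS litters. The summed level of the list was 1252, 1891, 2400 and 2072 CPM. With 1 litter left out, the median was -0.53 (DEX-1), -1.33 (DEX-2), -0.45 (PBS-1) and -0.92 (PBS-2), and with all litters 7 of 10 genes were below 0 without the mixed barcodes and 9 of 11 with HTODemux litter calls. The median was -0.30 in the largest subgroup alone, where 4 of 6 tested genes were below 0, and DEX-1 held no barcode of the Ms4a4c Plac8 subgroup that had Ly6c2 at 490.1 and Plac8 at 1898 CPM.

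On the interferon response list, all 7 tested genes were below 0 with a median of -0.84. Of these, 3 did not overlap between groups, namely Isg15, Ifitm3 and the regulator Irf7, as for 16.9% of all genes in this direction. Irf7 had 26.1, 45.1, 57.8 and 90.5 CPM in DEX-1, DEX-2, PBS-1 and PBS-2. Ifi27l2a varied within groups, at 93.9, 458, 809 and 438 CPM. Bst2, the membrane tether tetherin, overlapped at 219, 219, 213 and 234 CPM. Summed over the list, the litters had 607, 1166, 1710 and 1567 CPM. The Ms4a4c Plac8 subgroup, of which DEX-1 held 0 barcodes, had Ifitm3 at 3734 CPM against 164 in the other members and Irf7 at 615 against 24.2. The list median was -0.55 without DEX-1 and -1.57 without DEX-2, and -0.43 over the 3 genes that could be tested in the largest subgroup alone. With a marker sum of at least 5, 5 of 7 genes were below 0.

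Macrophage and alveolar macrophage lists did not move in 1 direction. Of 10 macrophage genes, 3 were above and 7 below 0 (median -0.29), and of 11 alveolar macrophage genes 5 were above and 6 below (median -0.07). Mrc1 had 177, 180, 147 and 101 CPM in DEX-1, DEX-2, PBS-1 and PBS-2, and Lyz2 7761, 6311, 6476 and 6740. The summed alveolar macrophage list had 3963, 6123, 4690 and 4908 CPM, so DEX-1 and DEX-2 lay on either side of the PBS litters.

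The glucocorticoid response list showed no common direction in litters given a glucocorticoid. Of 14 tested genes, 5 were above and 9 below 0, with a median of -0.03. Non-overlapping groups with DEX higher were found for 1, as for 17.7% of all genes. Nr3c1 had 83.5, 78.9, 78.8 and 85.7 CPM in DEX-1, DEX-2, PBS-1 and PBS-2, a log2 fold change of -0.04 ± 0.240. The glucocorticoid target Fkbp5, a co-chaperone of the receptor, had 62.6, 124, 129 and 89.3 CPM, and Tsc22d3, which encodes GILZ, 62.6, 49.6, 57.8 and 71.4. The most abundant genes of the list were Cebpb (2917, 3181, 3003 and 3186 CPM), Nfkbia (579, 385, 378 and 475), the phosphatase gene Dusp1 (334, 500.4, 352 and 436) and Anxa1, annexin A1 (334, 370, 357 and 356). The groups overlapped for each of these genes. Nr3c1 had a UMI in 48.7% of members against 85.6% of ILC2-marked singlets, and in 14.3% against 44.1% after thinning to 2000 UMIs.

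Genes of alveolar maturation and lipid handling had similar levels in the 2 groups. On the GM-CSF, TGF-beta and maturation list, 7 of 14 were above and 7 below 0 (median 0.0089), with the myeloid factor Spi1, which encodes PU.1, at 433, 561, 539 and 488 CPM, Tgfb1 at 297, 295, 347 and 286, and the GM-CSF receptor chain Csf2ra at 214, 174, 176 and 190. On the lipid list, 10 of 15 were above 0 (median 0.05), with Fabp5 at 1508, 2649, 2052 and 1870 CPM, the cholesterol carrier Npc2 at 1179, 742, 993 and 836, and the lipid droplet gene Plin2 at 449, 467, 457 and 449. Apoe was lowest in DEX-1, at 172 CPM against 854, 638 and 913 in DEX-2, PBS-1 and PBS-2.

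Genes of phagocytosis and of the lysosome were abundant in every litter. On the complement, phagocytosis and clearance list, 5 of 15 genes were above and 10 below 0 (median -0.21). The Fc receptor chain Fcer1g had 2161, 2558, 3071 and 2778 CPM in DEX-1, DEX-2, PBS-1 and PBS-2, the dectin-2 gene Clec4n 235, 277, 273 and 249, Fcgr3 240, 216, 297 and 231, and the clearance receptor gene Axl 224, 223, 176 and 212. On the lysosome list, 11 of 18 were above 0 (median 0.06), and 5 had both DEX litters higher, as had 17.7% of all genes. Psap, which encodes prosaposin, had 2275, 2324, 1821 and 2046 CPM, the protease inhibitor gene Cst3 1138, 1670, 1582 and 1810, and the cathepsin genes Ctss and Ctsd 1581, 1109, 1080 and 1175, and 793, 1129, 909 and 1053. Levels of MHC class II genes varied by gene, with Cd74 at 15.7, 117, 42.0 and 34.5 CPM and H2-DMa at 93.9, 162, 150 and 129. In the largest subgroup, H2-DMa was found in 57.8% of barcodes, and H2-Aa, H2-Ab1 and H2-Eb1 in 0.98% each.

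Cytokine and chemokine genes were led by Ccl6, a chemokine of macrophages, and Cxcl2, a neutrophil attractant. Ccl6 had 4911, 4454, 2604 and 3398 CPM in DEX-1, DEX-2, PBS-1 and PBS-2, with both DEX litters higher (log2 fold change 0.64 ± 0.15, edgeR adjusted p = 0.999). Its level was 17472 CPM in DEX and 13499 in PBS alveolar macrophage-like barcodes, and 864 and 952 in the largest subgroup. Ccl6 passed the threshold after thinning to 2000 UMIs and without the 20 mixed barcodes. Cxcl2 had 1994, 852, 736 and 926 CPM, Il1b 141, 527, 321 and 389, and Ccl4 78.3, 422, 384 and 344, and each overlapped between groups. Over the 14 tested genes, 6 were above and 8 below 0 (median -0.04).

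Division, metabolism and handling genes showed no shared direction that passed a test. Of 16 cell cycle genes, 11 were above and 5 below 0 (median 0.25). Of these, 5 did not overlap and were higher and 4 lower, against 17.7% and 16.9% of all genes. The replication gene Pcna had 172, 174, 105 and 121 CPM in DEX-1, DEX-2, PBS-1 and PBS-2, and the mitosis gene Ube2c 204, 158, 302.1 and 248. Stmn1 had 600.2, 376, 360 and 430 CPM and Birc5 251, 216, 252 and 225. In the largest subgroup alone the cell cycle median was -0.05. Of 9 glycolysis genes, 6 were above 0 (median 0.08), with Aldoa at 1555, 1301, 1519 and 1176 and Ldha at 1039, 1116, 998 and 874 CPM, and Pgam1 and Tpi1 between 329 and 523. The dissociation genes Fos, Junb, Btg2 and Jund ranged from 305 to 1756 CPM with 5 of 10 genes above 0 (median -0.03). Among 4 tested genes of the type 2 and IL-33 list, Retnla had 470, 2.25, 47.3 and 10.7 CPM, with 88 of its 90 UMIs in DEX-1 in 1 barcode, Il13ra1 had 57.4, 29.3, 78.8 and 53.6, and Il4ra 15.7, 40.6, 44.7 and 26.2. Both sexes were present in each pool, with Xist between 76.2 and 113 CPM and the Y-linked Eif2s3y between 21.4 and 31.6.

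**Figure D5:**
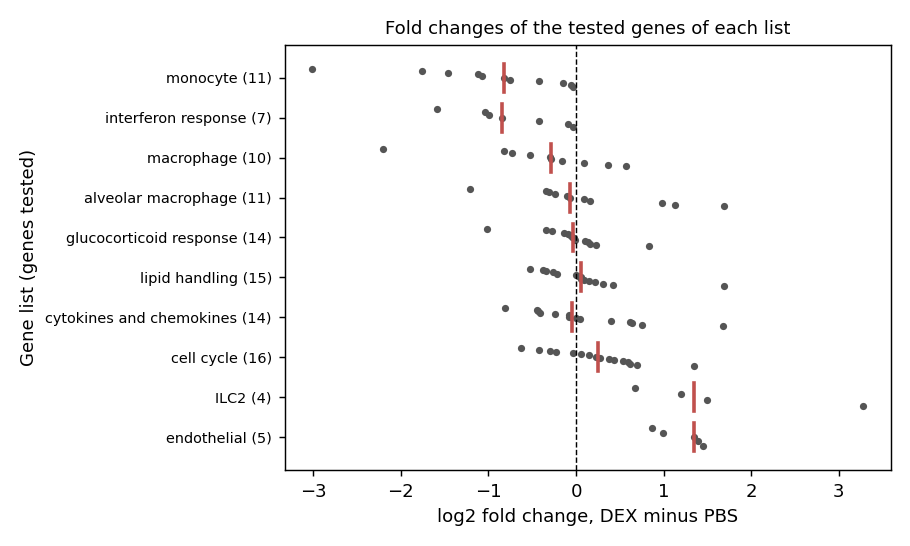
Log2 fold change, DEX minus PBS (horizontal axis), of every tested gene of 10 lists (rows, with the number of genes tested), with a red bar at each list's median and a dashed line at the median of all 5510 genes. The monocyte and interferon response lists lie wholly below 0, at medians of -0.83 and -0.84, the ILC2 and endothelial lists wholly above it, and no gene shown was called.

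Transcripts of other cell types differed between litters as well. The 4 tested ILC2 genes were all above 0 (median 1.35), and the summed ILC2 list had 382 and 173 CPM in the DEX litters and 72.2 and 140 in the PBS litters. The 5 endothelial genes were all above 0 (median 1.35), with summed levels of 650.1, 391, 64.7 and 322. With 1 litter left out, their median was 0.80 (DEX-1), 0.85 (PBS-1) and 3.06 (PBS-2, where 4 were called), and the 1 gene that could be tested without the mixed barcodes stood at -2.74. The ILC2 median was 0.46 without DEX-1 and 2.34 without PBS-2. Epithelial genes summed to 17706, 128, 6432 and 3413 CPM in DEX-1, DEX-2, PBS-1 and PBS-2, most of it Sftpc in single barcodes that held 3468, 2421 and 2572 UMIs. The mast cell or basophil list had 57.4, 44.9, 22.4 and 59.8 CPM, with Mcpt8 and Fcer1a at 0, and the erythroid list 4.78, 8.56, 0 and 940.0. The part of these transcripts in the differences between litters was not tested. Without the epithelial or endothelial-led subgroup, Spp1 was still the only gene called, the monocyte median was -0.57 with 9 of 11 genes below 0, and no endothelial gene could be tested.

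The DEX difference in members minus that in the other singlets of the same litters was tested for 14675 genes. The 8407 other singlets were a mixture, with 3338 mast or basophil-marked, 2074 ILC2-marked and 201 B-marked barcodes among them. A different mixture of cells between litters and a different response to DEX cannot be told apart by this term. Here 87 genes were called, 0.593%, of which 61 were more positive and 26 more negative in the members. In the other singlets alone, 0 of 15831 genes were called with edgeR, and 1260 had an unadjusted p below 0.05. Members and other singlets came from the same litters, which were a term of the fit. The fit had 2 residual degrees of freedom. It used 1 dispersion per gene for member sums of 20 to 85 barcodes and the far larger sums of other singlets. Its p-values can therefore be too small for the members, and genes with nearly all member UMIs in 1 barcode were among those called.

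Spp1 was called here as between DEX and PBS members, and Lst1, which was not called there, was called here. Spp1 had 4.69, 2.22, 177 and 203 CPM in the members of DEX-1, DEX-2, PBS-1 and PBS-2 and 2.68, 8.12, 8.83 and 2.21 in other singlets, on the scaling of this fit, a log2 difference of -6.47 ± 0.70 (edgeR adjusted p = 9.6e-17). Lst1 had a log2 difference of -1.52 ± 0.308 (edgeR adjusted p = 0.00035), with 148, 147, 137 and 88.9 CPM in other singlets. Plac8 had 0, 107, 270.1 and 209 CPM in members and 357, 315, 240.0 and 160 in other singlets, so the 2 orders ran opposite ways (log2 difference -2.80 ± 0.322, edgeR adjusted p = 9.6e-15). The Spp1 call was lost after thinning to 2000 UMIs, where the log2 difference was -11.44 (edgeR adjusted p = 0.0808), and in the largest subgroup alone (-1.92), and kept under the other alternatives. The Plac8 call was lost under the same alternatives, at -1.79 (edgeR adjusted p = 0.0788) and -1.12, and its difference was -1.84 without DEX-1 and -15.42 without DEX-2.

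Most of the other leading genes rested on 1 litter or a few barcodes. Hbb-bs, a beta-globin gene, and Hba-a1, an alpha-globin gene, had 512 of 513 and 127 of 127 UMIs in PBS-2 in 1 barcode. Fabp4 had 0, 894, 90.9 and 208 CPM in the members, and its sign turned without DEX-2. Ifitm1, which other singlets expressed at 939 to 3469 CPM, had 0, 11.1, 109 and 18.7 CPM in members, with 37 of 42 UMIs of PBS-1 in 1 barcode. The largest barcode held 54.3% of all member UMIs of Calca and 74.6% of those of Retnla. The sodium channel gene Scn7a stood at 459 CPM in the epithelial or endothelial-led subgroup against 2.36 in the other members. For the receptor chain gene Ramp2, 1 barcode held 41 of 69, 49 of 67, 8 of 11 and 71 of 113 UMIs of DEX-1, DEX-2, PBS-1 and PBS-2.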

How the data were processed

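Per the file headers and labels, the authors made the deposited matrix of UMI counts with Cell Ranger 7.0.0 on mm10, with 32285 gene rows and 4 hashtag rows over 10648 barcodes. It held counts that had not been normalized. Here, barcodes with at least 200 genes and at most 5% mitochondrial UMIs were kept (10409). A litter was called where the top hashtag had at least 10 UMIs and at least 3 times the next, which gave 8598 singlets. HashTag_1, 2, 7 and 8 were matched to DEX-1, DEX-2, PBS-1 and PBS-2 by number. A legend of the study gives 1 dam per group, while its methods, the labels and the hashtags give 2, which were followed. The members, gene lists and tests were chosen with earlier results of these data known.

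Sums per litter were tested with edgeR 4.0.16 (quasi-likelihood, TMM, filterByExpr, Benjamini-Hochberg adjustment, threshold 0.05). The interaction fit had litter as a term. On simulated data for the 5510 genes, the DEX comparison recovered 68% of 4-fold and 13% of 2-fold changes, and the interaction fit 46% and 6%. The simulation assumed a dispersion of 0.05 for every gene, the same in members and other singlets. It held no single barcodes rich in 1 gene, and the real interaction fit tested 14675 genes. These shares therefore need not hold for the real data. Subgroups came from Leiden clustering (resolution 0.3, 1000 variable genes, 10 components, 10 neighbours, scanpy 1.11.5), and both the resolution and the names were set after seeing the clusters. Intervals were at 95%, and a count of 0 was given a floor of 3 counts. Genes named were the markers and rule genes, the 10 called genes with the largest fold in each direction or, with under 5 called, the 5 smallest p, the 4 most abundant tested genes of each function list, and the 5 smallest p in each direction of the interaction. Genes of the marker lists, Nr3c1, Fkbp5, Tsc22d3, Irf7, Gal and others beyond this rule were chosen after their values were seen. Alternatives used DESeq2 1.42.0, Seurat 5.3.0 (HTODemux), other normalization, filters and member rules. Gene positions came from an annotation of GRCm38, in which 99.6% of gene rows were found, and promoter windows from RefSeq. Some items are not reported here.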

Additional observations from a re-analysis of the deposited data

Results flagged for a closer look

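A test of the difference between the members and the other singlets of the same litters marked 87 of 14675 genes whose DEX difference was not equal in the 2 (edgeR adjusted p below 0.05). The 5 genes with the smallest p that were more positive in members were Calca (log2 difference 3.23), Scn7a (3.54), Retnla (3.28), Ramp2 (2.46) and Fabp4 (2.56). The 5 that were more negative were Hbb-bs (-6.15), Spp1 (-6.47), Plac8 (-2.80), Hba-a1 (-6.02) and Ifitm1 (-3.41). The largest barcode held 99.4% of the Hbb-bs UMIs of all members, 99.2% of Hba-a1, 74.6% of Retnla, 59.7% of Ifitm1, 54.3% of Calca, 36.1% of Spp1, 30.6% of Scn7a, 27.3% of Ramp2, 25.0% of Fabp4 and 12.2% of Plac8. The count fell to 30 without the epithelial or endothelial-led subgroup, 23 of them among the 87. No outlier among litters could be sought with 2 litters per group.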

How the results depend on the processing

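Between DEX and PBS members, 1 gene (Spp1) was called with edgeR, and the count stayed at 1 with DESeq2, RLE normalization, HTODemux litter calls, a mitochondrial limit of 10%, a marker sum of at least 5 and without the epithelial or endothelial-led subgroup. It was 50 of 14703 genes with no low-count filter, 2 of 1364 after thinning, 5 without the 20 mixed barcodes, and 0 of 2778 in the largest subgroup. Leaving out 1 litter gave 24 (PBS-1 left out), 47 (DEX-1), 58 (PBS-2) and 128 (DEX-2) calls, and Spp1 among them each time; a lone litter was assumed to vary like the other group. The largest-subgroup, epithelial and crossed alternatives were chosen after seeing the data. Litters shared only a number: across 5510 genes the deviations of same-numbered litters correlated at -0.11, the replicate block called 2 genes (Calca and Spp1), and the crossed block 0, with Spp1 at an edgeR adjusted p of 0.0847. In the interaction, 87 genes became 102 with RLE, 82 without the filter, 6 after thinning, 52 with HTODemux, 51 without mixed barcodes, 30 without the epithelial or endothelial-led subgroup, 12 in the largest subgroup, and 42 (PBS-1 left out), 51 (DEX-1), 54 (PBS-2) and 234 (DEX-2) with 1 litter fewer. The share difference kept its sign under every alternative run, from -0.657 to -1.73 points. Signs reversed for Hist1h1e in the largest subgroup (-0.86) and, in the interaction, for Calca with HTODemux (-1.39) and without mixed barcodes (-1.73), Ramp2 without mixed barcodes (-1.74) and in the largest subgroup (-9.11), Fabp4 without DEX-2 (-11.01, other leave-outs up to 3.86) and in the largest subgroup (-10.35), Hbb-bs without PBS-2 (8.36, others down to -8.20) and in the largest subgroup (8.72), and Hba-a1 without PBS-2 (7.16, others down to -12.96). Retnla reversed with HTODemux (-1.43), without mixed barcodes (-0.25), without DEX-1 (-2.85, others up to 5.62), without the epithelial or endothelial-led subgroup (-0.996) and in the largest subgroup (-0.074). The cause of these changes was not tested.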
